A study of Mus musculus with 12 samples.

Results

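Interferon-stimulated genes were examined in neutrophils that had entered the mouse liver after acute injury by carbon tetrachloride (CCl4), a solvent that kills hepatocytes. The set held 42 genes, chosen by symbol from the known targets of interferon and matched by Ensembl identifier, out of 48709 gene rows in the count table. Of these 42 genes, 39 passed the filter on low counts and were tested, among 12488 genes tested in all. The neutrophils came from C57BL/6N male mice of 8 to 10 weeks and were sorted as Ly6G hi, Ly6C int, CD11b+ and CD45+ cells. Control splenic neutrophils (3 libraries) came from untreated mice, which received neither CCl4 nor the corn oil in which it was given. Liver neutrophils came from mice given a single intraperitoneal dose of 1 mL/kg CCl4, either 24 hours earlier (24-hour neutrophils, 4 libraries) or 72 hours earlier (72-hour neutrophils, 5 libraries). The tissue of origin and the injury change together between control and liver neutrophils, so that their effects cannot be told apart.

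Interferons are secreted proteins that warn cells of infection or damage. Type I interferons bind the receptor made of IFNAR1 and IFNAR2, whose kinases JAK1 and TYK2 phosphorylate transcription factors, STAT2 among them. With IRF9, STAT2 is part of a complex that binds the interferon-stimulated response element in the promoters of its target genes, whereas interferon gamma acts mainly at gamma-activated sites. The targets include sensors of foreign nucleic acid, antiviral effectors, further transcription factors and inhibitors that shut the response down. Neutrophils carry interferon receptors, and a subset with high expression of interferon-stimulated genes is well known from single-cell studies of blood and tissue.

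A library held 1267089 to 3017403 counts on genes, of which the 42 genes together took between 0.0943% and 0.234%. Of the 39 tested members, 5 averaged under 10 counts per library and 27 averaged 30 or more. Between 2.71% and 3.18% of the uniquely aligned reads of a library were counted on a gene. The 20 genes with the most counts all had an exon that overlapped a gene on the opposite strand, in whole or in part. Such genes held 84.9% to 91.5% of all counts but 9.68% to 16.8% of the counts of the interferon-stimulated genes. The strand option of the counter was not stated, and whether reads of a gene's own strand were counted was not tested. Each level and each 0 given here is that of the deposited counts, and may not be that of the gene's own transcript. Marker transcripts of neutrophils (12 genes, among them S100a8, S100a9 and Ly6g) summed to 11251 and 11083 CPM (counts scaled to the effective library size) in spleen replicates 1 and 2 and to 1172 to 2809 CPM in the other libraries. Markers of other cell types were also present. Of 12 monocyte and macrophage markers, 7 to 8 had a count in each group, with sums of 134 to 216 CPM per library, while Clec4f and C1qa were at 0 throughout. Of 6 endothelial markers, 4 had a count in each group (28.8 to 72.7 CPM), with Kdr and Cdh5 at 0 throughout. The 9 dendritic cell markers, 7 to 9 of them with a count, summed to 47.8 to 146 CPM in spleen, 20.2 to 60.5 CPM at 24 hours and 56.5 to 101 CPM at 72 hours. The 7 B cell markers, 4 to 6 of them with a count, summed to 39.4 to 73.2 CPM over all libraries. Of 8 T and NK cell markers, 2 to 3 had a count (1.298 to 9.19 CPM), and Cd3e, Cd4 and Klrb1c were at 0 throughout. The 8 hepatocyte markers, of which 2, 5 and 7 had a count in the 3 groups and Ttr was at 0 throughout, summed to 2.32 to 6.11 CPM in spleen, 14.9 to 20.2 CPM at 24 hours and 3.24 to 27.5 CPM at 72 hours. Spleen replicate 3 stood apart from the other two spleen libraries, and 72-hour replicates 2 and 3 differed from the rest in listing 1.91% and 1.98% of reads as unaligned against 49.6% to 50.7% elsewhere. In bulk RNA of this kind, fewer responding cells and less RNA per cell cannot be told apart. An exon of 9 tested members overlaps a gene on the other strand, in whole or in part (23.1% of members, against 49.2% of all tested genes). They are Dhx58, Irf1, Irf7, Usp18, Oasl1, Eif2ak2, Gbp2, Rtp4 and Slfn5.

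Several members had interferon-stimulated response elements just before their start sites in the reference genome. The element was searched as GAAANNGAAA on both strands (TTTCNNTTTC on the other strand) in the 300 bases around each RefSeq start, from 250 bases before it to 50 bases after it. It was found in 1131 of 32851 promoters (3.44%) and in at least 1 promoter of 20 of the 34 members that had an entry. The gamma-activated site, searched as TTCNNNGAA, was found in 2726 promoters (8.3%) and in 8 of the 34 members. The stretches printed here (GRCm38.p6, RefSeq) hold the matches in capitals with up to 30 bases on each side, written in the direction of the gene. Ifit1 is shown because it was called in the tests. Of the members with a match and above 0 in every 72-hour library, Ifit3, Isg15 and Rsad2 had the widest ranges at that time. Ifit3b is shown because it shares the stretch of Ifit3. The choice was made after the values were seen. Dhx58 and Isg20 had wider 72-hour ranges than Rsad2 but are not shown, since Dhx58 had no entry and Isg20 no match. Ifit1 lies at chr19:34640755-34640843 on the plus strand, with matches 104 and 85 bases before the start.
Ifit1: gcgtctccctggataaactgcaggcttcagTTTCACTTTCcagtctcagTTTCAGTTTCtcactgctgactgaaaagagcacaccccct
The stretches of Ifit3 (chr19:34583343-34583446) and Ifit3b (chr19:34607739-34607842), both on the plus strand, are identical over 104 bases.
Ifit3: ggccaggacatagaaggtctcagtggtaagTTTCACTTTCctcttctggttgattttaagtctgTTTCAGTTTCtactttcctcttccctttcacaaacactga
Ifit3b: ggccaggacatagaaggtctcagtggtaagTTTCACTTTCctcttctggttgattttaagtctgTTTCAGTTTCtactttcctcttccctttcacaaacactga
Isg15 (chr4:156200845-156200926, minus strand) has 3 overlapping matches, and Rsad2 (chr12:26456533-26456602, minus strand) has 1 match 120 bases before its start.
Isg15: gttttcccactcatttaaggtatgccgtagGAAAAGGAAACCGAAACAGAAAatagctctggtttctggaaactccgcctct
Rsad2: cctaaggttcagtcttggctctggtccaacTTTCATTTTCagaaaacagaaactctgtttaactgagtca
No match was found in the windows of Cmpk2, Nmi, Oasl1, Oasl2, Herc6 or Ifitm1. The windows of Ifit2, Isg20, Irf1, Irf7, Irf9, Slfn4, Xaf1 and Ifi44 had none either. A match describes the letters of the window and does not show that a factor was bound there.

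Ifit1 was the only member to pass the test against control splenic neutrophils, and it did so at both times. It encodes an antiviral protein that binds viral RNA lacking the host's cap methylation and blocks its translation. Its level was 12.5, 10.9 and 12.5 CPM in the spleen libraries, 16.4, 27.6, 62.2 and 44.5 CPM in 24-hour neutrophils, and 59.6, 53.2, 79.2, 23.6 and 14.3 CPM in 72-hour neutrophils. Every liver library was above every spleen library, while the liver times overlapped fully, with 72-hour replicate 5 lowest of all the liver libraries. On the log2 scale Ifit1 rose by 1.64 ± 0.49 (SE; edgeR quasi-likelihood test, Benjamini-Hochberg adjusted p = 0.0381) at 24 hours and by 1.95 ± 0.48 (adjusted p = 0.0154) at 72 hours, from a mean of 11.98 ± 0.958 CPM (SD, n = 3) to 37.7 ± 20.03 (n = 4) and 46.0 ± 26.7 (n = 5). The 2 liver times differed by 0.31 (adjusted p = 0.707). The 24-hour call was lost when spleen replicate 1, 2 or 3 or 24-hour replicate 3 or 4 was left out (adjusted p between 0.0639 and 0.125), and the 72-hour call when spleen replicate 1 or 2 was left out (0.0722 and 0.0975) or when 72-hour replicates 2 and 3 were left out together (log2 fold change 1.45, adjusted p = 0.160). Limma-voom, the study's own test, gave 0.110 at 24 hours and 0.0515 at 72 hours, within ranges of 0.000488 to 0.125 and 6.49e-06 to 0.160 over 22 alternatives each.

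Counted over all members in edgeR, 24-hour neutrophils had 1 member higher and 0 lower than control splenic neutrophils, where 5.35% of all tested genes were called higher, 4.4% lower and 9.75% in either direction. At 72 hours the count was again 1 higher and 0 lower, against 2.63%, 2.71% and 5.33% of all genes. Between the liver times 0 of 39 members were called, against 1.65% of all genes higher at 72 hours, 2.84% lower and 4.49% in either direction. Without adjustment, 8 members had a p below 0.05 at 24 hours (26.2% of all genes), 6 at 72 hours (17.1%) and 9 between the liver times (20.9%). Of these, 4 were higher at 24 hours (11.4% of all genes), 6 at 72 hours (8.74%) and 8 between the liver times (11.8%). DESeq2 called 2, 2 and 1 members in these comparisons. The median log2 fold change of the members was -0.01 at 24 hours, where that of all genes was -0.23, then 0.32 against -0.02 at 72 hours, and 0.34 against 0.18 between the liver times. Leaving out the members with 3 or fewer counts in every library of a group changed these medians to -0.01 over 35 members, 0.30 over 37 and 0.32 over 36. The fold change was above 0 in 18 members at 24 hours (41.2% of all genes), in 30 at 72 hours (48.7%) and in 34 between the liver times (59%). These counts and medians describe the list, and no test was made over it.

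**Figure D1:**
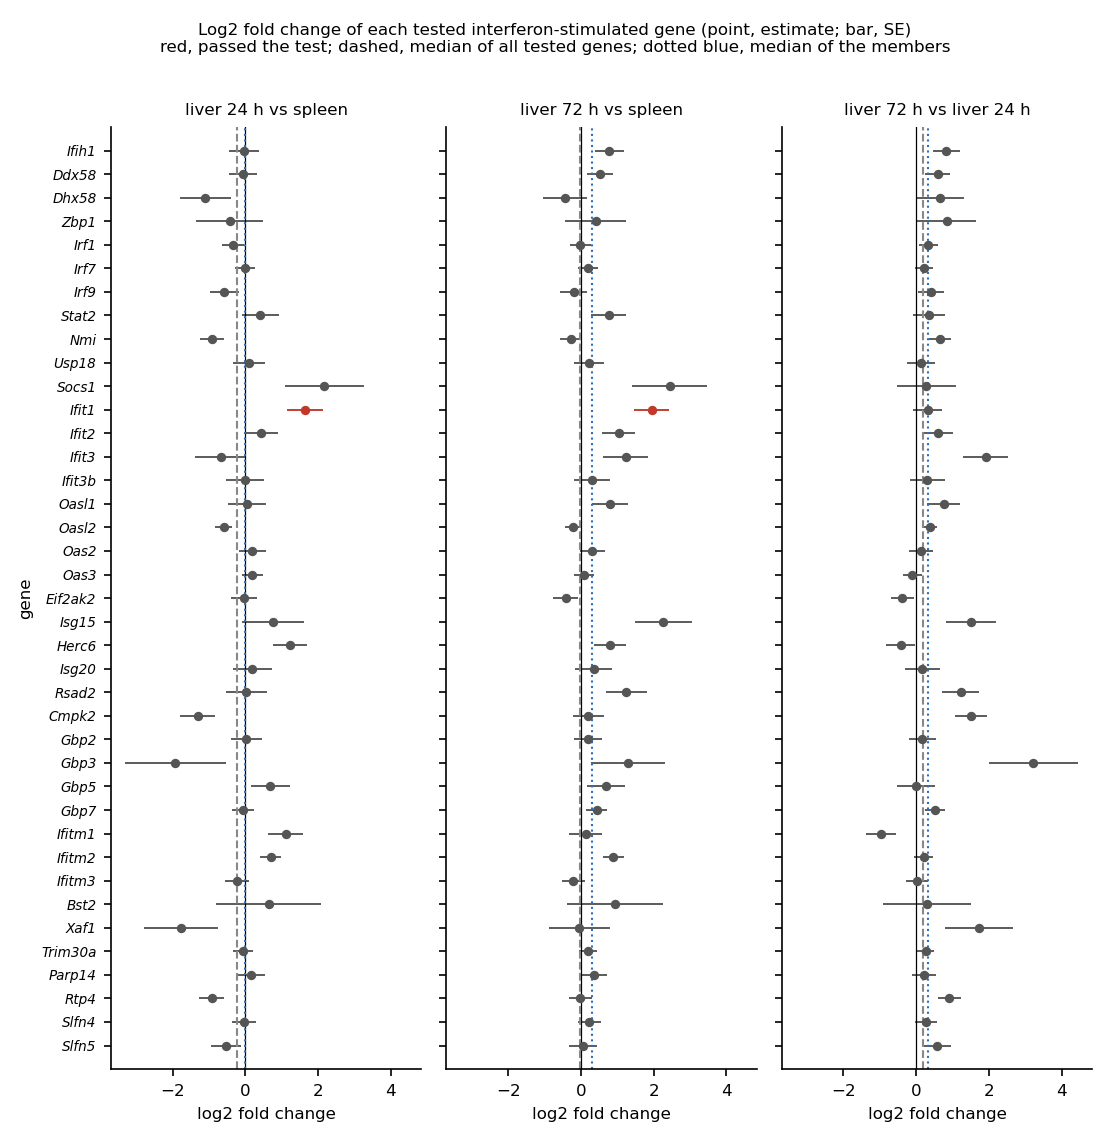
Log2 fold change of the 39 tested interferon-stimulated genes in each comparison, with points for the estimate, bars for its standard error, a dashed line for the median of all tested genes and a dotted blue line for the median of the members. Ifit1, in red, is the one member called, at 1.64 and 1.95 against spleen, and the 72-hour panels sit slightly to the right of 0. Points of Socs1, Gbp3, Xaf1 and Bst2 rest on groups with 3 or fewer counts per library.

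Among the sensors of foreign nucleic acid, none was called in any comparison, and all 4 had a log2 fold change above 0 between 72-hour and 24-hour neutrophils (0.59 to 0.83). Ifih1, which encodes the double-stranded RNA sensor MDA5, was at 10.2, 10.1 and 12.2 CPM in spleen, 8.20, 16.2, 12.02 and 5.84 CPM at 24 hours, and 19.5, 23.8, 25.7, 12.5 and 11.0 CPM at 72 hours. The first 3 libraries at 72 hours were higher than every other library, and replicates 4 and 5 lay among the spleen and 24-hour values. Its log2 fold change at 72 hours amounted to 0.79 ± 0.39 against spleen (SE; edgeR, adjusted p = 0.317) and 0.82 ± 0.37 against 24 hours (adjusted p = 0.207). Dhx58, which encodes LGP2, a regulator of RIG-I and MDA5, was at 6.49, 6.89 and 8.68 CPM in spleen, 1.89, 0.5999, 6.36 and 5.11 CPM at 24 hours and 6.51, 8.64, 8.05, 0.695 and 1.95 CPM at 72 hours. All 24-hour libraries were below all spleen libraries, and the 72-hour libraries split between the spleen range and values under 2 CPM. At 24 hours the log2 fold change came to -1.10 ± 0.70 (edgeR, adjusted p = 0.326), and the gene Dhx58os lies on its opposite strand. Ddx58, the gene of the RNA sensor RIG-I, ranged from 11.7 to 34.2 CPM and Zbp1, a sensor of Z-form nucleic acid, from 0 to 7.05 CPM over all libraries.

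None of the 5 transcription factors and partners of the response was called. Stat2, a subunit of the complex that binds the response element, was at 15.3, 15.9 and 4.18 CPM in spleen, 10.7, 21.6, 19.8 and 10.2 CPM at 24 hours, and 21.7, 24.5, 31.9, 7.64 and 11.7 CPM at 72 hours. The groups overlapped throughout, and spleen replicate 3 was the lowest of the 12 libraries. Nmi, which encodes a partner that binds STAT and MYC proteins, was at 26.4, 27.2 and 26.4 CPM in spleen, 9.46, 11.4, 21.9 and 13.9 CPM at 24 hours and 16.8, 27.6, 24.1, 18.1 and 23.4 CPM at 72 hours. Every 24-hour library was below the spleen libraries, whose values were nearly equal, and the 72-hour libraries reached from the 24-hour range into the spleen range. For Nmi the log2 fold change was -0.92 ± 0.34 at 24 hours (edgeR, adjusted p = 0.0914) and -0.27 at 72 hours (adjusted p = 0.766), and the 24-hour difference was called without 24-hour replicate 3 (-1.21, adjusted p = 0.0345). Irf1 (24.8 to 59.8 CPM) and Irf7 (27.8 to 55.3 CPM), both activators of interferon and interferon-stimulated genes, and Irf9 (6.25 to 24.6 CPM), the DNA-binding subunit of the complex, had log2 fold changes between -0.59 and 0.40. All 5 factors were above 0 between 72-hour and 24-hour neutrophils (0.21 to 0.65), none with a call.

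Feedback inhibitors were not called. Usp18, the protease that removes ISG15 from proteins and blocks the interferon receptor, was at 12.5, 6.89 and 11.3 CPM in spleen, 6.31, 9.60, 17.7 and 10.2 CPM at 24 hours and 18.4, 8.98, 10.5, 13.9 and 8.44 CPM at 72 hours. Its groups overlapped, with log2 fold changes of 0.10 and 0.23 against spleen (edgeR, adjusted p = 0.921 and 0.869). Socs1, an inhibitor of JAK kinases, had 3, 0 and 1 counts in the spleen libraries, 3, 10, 3 and 0 counts at 24 hours, and 4, 10, 14, 1 and 7 counts at 72 hours. More counts than in any spleen library were seen in 5 of the 9 liver libraries, and the differences rest on a few reads (edgeR, adjusted p = 0.208 at each time), and a fold against a group at 3 or fewer counts is not given.

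The Ifit family, 4 antiviral proteins with tetratricopeptide repeats, lies within 99.3 kb on chromosome 19 (34550694 to 34650009), and the fold changes of all 4 genes were above 0 at 72 hours against spleen (0.30 to 1.95). Ifit3 was at 7.42, 6.52 and 7.72 CPM in spleen, 6.31, 1.80, 8.49 and 1.46 CPM at 24 hours and 16.3, 21.8, 36.8, 2.08 and 5.19 CPM at 72 hours. Replicates 1 to 3 at 72 hours were above all spleen and 24-hour libraries, whereas replicates 4 and 5 were below all spleen libraries. Ifit3 had a log2 fold change of 1.23 ± 0.63 at 72 hours (edgeR, adjusted p = 0.330), -0.68 ± 0.71 at 24 hours (0.580) and 1.91 ± 0.63 between the liver times (0.0825), the last being called without 72-hour replicate 4 (2.17, adjusted p = 0.0279). Ifit3 and Ifit3b share 31.7% and 27.4% of their 100-base stretches, so that the division of reads between them is uncertain. Ifit2 ranged from 11.96 to 20.4 CPM in spleen, 10.8 to 25.9 CPM at 24 hours and 10.4 to 56.6 CPM at 72 hours, and Ifit3b from 7.89 to 17.7, 7.80 to 19.8 and 3.89 to 25.7 CPM. Both had their 3 highest values at 72 hours in replicates 1, 2 and 3 and their 2 lowest in replicates 4 and 5.

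Oligoadenylate synthetases make the messenger that activates RNase L, and PKR (Eif2ak2) halts translation on sensing double-stranded RNA. Oasl1, a catalytically inactive member, was at 15.3, 18.5 and 21.2 CPM in spleen, 11.98, 12.6, 23.3 and 28.4 CPM at 24 hours, and 32.5, 41.5, 64.4, 8.34 and 9.73 CPM at 72 hours. The 72-hour libraries held both the 3 highest and the 2 lowest values of the 12 (log2 fold change 0.80 ± 0.49 against spleen; edgeR, adjusted p = 0.457). Oasl2, which lies with Oasl1 within 41 kb on chromosome 5 and keeps its catalytic activity, was at 158, 181 and 192 CPM in spleen, 119, 107, 134 and 107 CPM at 24 hours and 153, 183, 171, 124 and 125 CPM at 72 hours. All 24-hour libraries lay below the spleen libraries, and the 72-hour libraries reached over both ranges. A log2 fold change of -0.60 ± 0.22 was found at 24 hours (edgeR, adjusted p = 0.0935) and of 0.37 ± 0.20 between the liver times (adjusted p = 0.293). Oas2 (19.7 to 52.0 CPM), Oas3 (71.6 to 169 CPM) and Eif2ak2 (9.08 to 30.6 CPM) had log2 fold changes between -0.42 and 0.32 in the 3 comparisons.

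Isg15 encodes the ubiquitin-like protein that is joined to new proteins in interferon-treated cells, in mouse by the ligase HERC6. Isg15 had 11, 8 and 4 counts in spleen (5.10, 2.8998 and 1.29 CPM), 7, 1, 17 and 5 counts at 24 hours (4.41, 0.5999, 12.02 and 3.65 CPM) and 12, 61, 112, 3 and 9 counts at 72 hours (6.51, 21.1, 34.7, 2.08 and 5.84 CPM). Replicates 2 and 3 at 72 hours were the highest of all 12 libraries, and the other 72-hour libraries overlapped both groups. At 72 hours the fold change was 2.26 ± 0.78 on the log2 scale (edgeR, adjusted p = 0.101), and it fell to 0.68 (adjusted p = 0.879) without replicates 2 and 3. It was called without replicate 4 (2.52, adjusted p = 0.0362). Herc6 was at 4.18, 5.07 and 5.47 CPM in spleen, 17.0, 11.4, 9.90 and 8.02 CPM at 24 hours and 9.76, 10.7, 10.5, 4.17 and 7.14 CPM at 72 hours. All 24-hour libraries were above the spleen libraries, as were 4 of the 5 72-hour libraries. Herc6 had a log2 fold change of 1.23 ± 0.46 at 24 hours (edgeR, adjusted p = 0.0953) and 0.80 at 72 hours (adjusted p = 0.384). Of its 100-base stretches, 10.3% are shared with another annotated gene.

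Rsad2 and Cmpk2 are neighbours on chromosome 12, with 12751 bases between them, and both act on cytidine nucleotides: CMPK2 is a kinase of pyrimidine nucleotides in mitochondria, and RSAD2 (viperin) converts CTP into a chain terminator of viral polymerases. Rsad2 had 48, 86 and 106 counts in spleen (22.3, 31.2 and 34.1 CPM), 33, 22, 67 and 53 counts at 24 hours (20.8, 13.2, 47.4 and 38.7 CPM) and 159, 340, 362, 16 and 28 counts at 72 hours (86.2, 117, 112, 11.1 and 18.2 CPM). Replicates 1 to 3 at 72 hours were above every spleen and 24-hour library, and replicates 4 and 5 were below every spleen library. Rsad2 had a log2 fold change of 1.25 ± 0.55 at 72 hours against spleen (edgeR, adjusted p = 0.233) and 0.03 at 24 hours (adjusted p = 0.982), and it was called between the liver times without 72-hour replicate 4 (1.49, adjusted p = 0.0485). Cmpk2 was at 28.8, 30.4 and 23.5 CPM in spleen, 15.1, 2.999, 12.7 and 13.9 CPM at 24 hours and 48.8, 34.5, 47.0, 11.8 and 14.9 CPM at 72 hours. Every 24-hour library was below every spleen library, and the 72-hour libraries again divided, with replicates 1, 2 and 3 above the spleen range and replicates 4 and 5 within the 24-hour range. Cmpk2 had the smallest adjusted p of the members between the liver times (log2 fold change 1.52 ± 0.44; edgeR, adjusted p = 0.0507) and a log2 fold change of -1.31 ± 0.48 at 24 hours (adjusted p = 0.0881). The difference between the liver times was called under 7 of 22 alternatives (adjusted p from 0.00177 to 0.229), among them the fits without spleen replicate 3, 72-hour replicate 4 or 72-hour replicate 5. Isg20, an exonuclease of single-stranded RNA, ranged from 5.80 to 8.36 CPM in spleen, 4.41 to 11.3 CPM at 24 hours and 1.39 to 15.2 CPM at 72 hours.

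**Figure D2:**
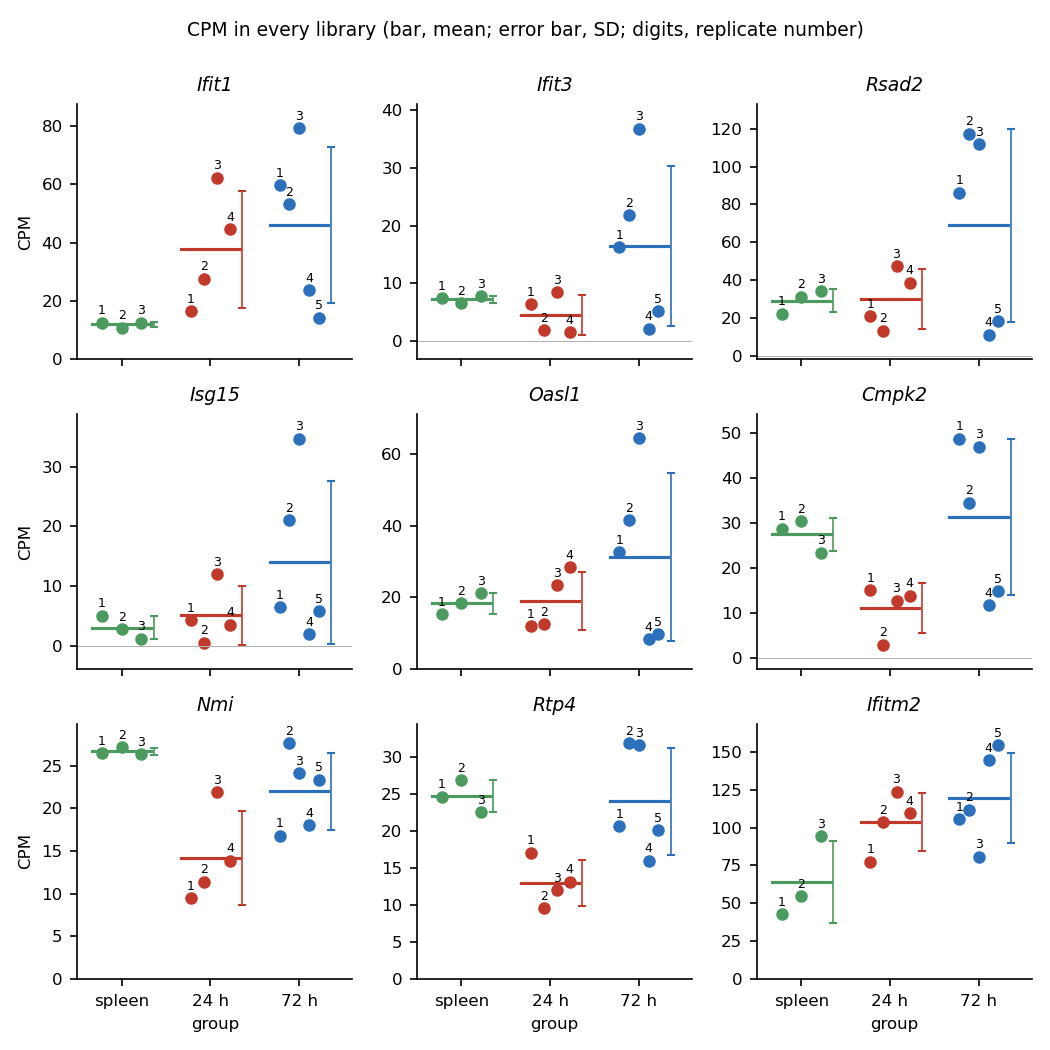
CPM of 9 members in each library, with the group mean as a bar, the SD as an error bar and the replicate number above each point. At 72 hours, replicates 1, 2 and 3 of Ifit1, Ifit3, Rsad2, Isg15, Oasl1 and Cmpk2 lie above replicates 4 and 5, whereas Ifitm2 has its highest values in replicates 4 and 5.

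The Mx GTPases, which block the replication of viruses, were all but absent: Mx1 had 1 count in 1 library (72-hour replicate 3) and Mx2 had 0 counts in every library. Ifi44, an interferon-induced protein of uncertain function, also had 1 count in all (72-hour replicate 5). These are the 3 members that were not tested. Among the guanylate-binding proteins, GTPases that attack the vacuoles of intracellular pathogens, all 4 members lie within 144 kb on chromosome 3 (142493978 to 142638008). Gbp3 had 4, 1 and 1 counts in spleen, 0, 0, 1 and 0 counts at 24 hours and 2, 6, 15, 1 and 2 counts at 72 hours, too few for a fold against the 24-hour group (edgeR, adjusted p = 0.133 between the liver times). Gbp7 was at 24.1, 25.01 and 22.2 CPM in spleen, 26.5, 17.4, 24.0 and 22.6 CPM at 24 hours and 29.3, 44.2, 33.7, 30.6 and 22.7 CPM at 72 hours. It was above the spleen range in 4 of the 5 72-hour libraries (log2 fold change 0.44 ± 0.29; edgeR, adjusted p = 0.495). Gbp2 stayed between 8.40 and 24.5 CPM and Gbp5 between 3.795 and 20.7 CPM over all libraries.

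The IFITM proteins block the fusion of viruses with cell membranes, and their 3 genes lie within 55.9 kb on chromosome 7 (140954837 to 141010770). Ifitm2 was at 42.7, 54.7 and 94.2 CPM in spleen, 77.6, 104, 124 and 109 CPM at 24 hours and 106, 112, 80.8, 145 and 154 CPM at 72 hours. Spleen replicate 3 reached into the range of the liver libraries, all of which were above the other spleen libraries. Its log2 fold change was 0.69 ± 0.30 at 24 hours (edgeR, adjusted p = 0.139) and 0.89 ± 0.29 at 72 hours (adjusted p = 0.0736), and both were called without spleen replicate 3 (1.08, adjusted p = 0.0243, and 1.28, adjusted p = 0.00881), the latter also without 72-hour replicate 3 (adjusted p = 0.04999). With other annotated genes, mostly Gm45717, it shares 34.9% of its 100-base stretches. Ifitm1 was at 62.2, 53.3 and 12.5 CPM in spleen, 99.7, 164, 41.7 and 59.1 CPM at 24 hours and 51.0, 72.2, 44.0, 18.1 and 46.1 CPM at 72 hours. Values overlapped between all groups, and 24-hour replicates 1 and 2 were the highest (log2 fold change 1.11 ± 0.48; edgeR, adjusted p = 0.152). Ifitm3 ranged from 20.9 to 64.9 CPM, with spleen replicate 3 the lowest of the 12 libraries. Bst2, the gene of tetherin, which holds budding virus at the cell surface, had 0 to 6 counts in each library.

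The remaining members gave no call either. Rtp4, a chaperone of receptors that is induced by interferon, was at 24.6, 26.8 and 22.5 CPM in spleen, 17.0, 9.60, 12.02 and 13.1 CPM at 24 hours and 20.6, 31.8, 31.6, 16.0 and 20.1 CPM at 72 hours. All 24-hour libraries were below the spleen libraries, and 4 of the 5 72-hour libraries were above all 24-hour libraries. The log2 fold change of Rtp4 was -0.93 ± 0.34 at 24 hours (edgeR, adjusted p = 0.0911) and 0.91 ± 0.31 between the liver times (adjusted p = 0.0975). Parp14, an ADP-ribosyltransferase, was at 29.7, 32.6 and 34.7 CPM in spleen, 45.4, 33.6, 20.5 and 45.2 CPM at 24 hours and 46.6, 61.1, 57.9, 18.8 and 22.1 CPM at 72 hours. Its 72-hour libraries held the 3 highest values of the 12 and, in replicates 4 and 5, values below all spleen libraries (log2 fold change 0.37; edgeR, adjusted p = 0.701). Slfn4, a Schlafen gene of myeloid cells, had the highest counts of the set (223 to 723 CPM), while Slfn5 ranged from 13.2 to 50.4 CPM, Trim30a, a TRIM protein that restrains NF-κB signalling, from 35.4 to 75.9 CPM, and Xaf1, an antagonist of the apoptosis inhibitor XIAP, from 0 to 4.64 CPM.

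Counted by ranges rather than by tests, 2 members were higher in every 24-hour library than in every spleen library (Ifit1 and Herc6, where 9.76% of all tested genes were) and 6 were lower (Dhx58, Irf9, Nmi, Oasl2, Cmpk2 and Rtp4, where 13% of all genes were). At 72 hours Ifit1 alone was separate from spleen on the higher side (5.59% of all genes) and 0 members on the lower side (6.37%). Between the liver times 0 members were separate in either direction, against 4.49% of all genes higher and 5.02% lower.

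**Figure D3:**
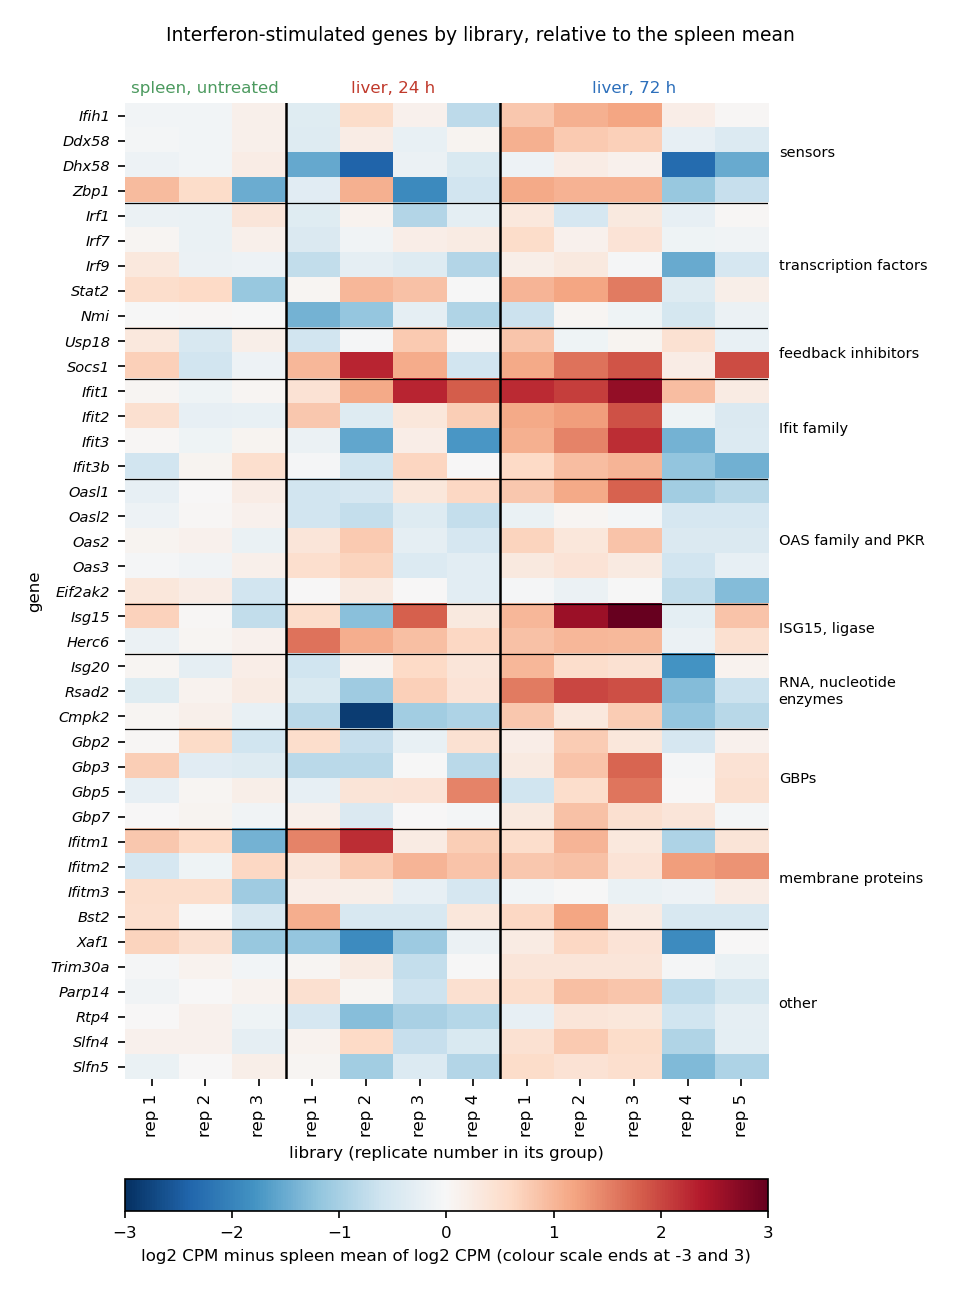
Log2 CPM of the 39 tested members in each of the 12 libraries after subtraction of the spleen mean of log2 CPM, with genes in rows by role and libraries in columns. Ifit1 is above 0 in every liver library, and the columns of 72-hour replicates 1, 2 and 3 are mostly red where those of replicates 4 and 5 are mostly blue.

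The 72-hour libraries differed among themselves across most of the set. Relative to the group mean of log2 CPM, the median member stood at 0.35, 0.45 and 0.43 in 72-hour replicates 1, 2 and 3, and at -0.69 and -0.42 in replicates 4 and 5. Members above their group mean numbered 30, 35 and 36 of 39 in the first 3 libraries, and 2 and 9 in the others. Of all tested genes, 48.4% to 53.5% were above their mean in each, a share that scaling keeps alike between libraries. Over all tested genes, deviations of replicates 1, 2 and 3 correlated with those of replicates 4 and 5 at -0.51 to -0.36. The correlations were -0.07 to 0.10 among replicates 1, 2 and 3, and 0.11 between replicates 4 and 5. A division of these libraries was therefore seen beyond the members. Replicate 4 held the lowest 72-hour value of 24 members, ties included (28.1% of all genes), and the highest of 0 (23.9% of all genes). The summed level of the 42 genes was 1972, 2235, 2188, 1037 and 1272 CPM in order of replicate number, compared with 1364 to 1497 CPM in spleen and 1266 to 1760 CPM at 24 hours. The median SD of the members within a group was 0.22 log2 units in spleen, 0.55 at 24 hours and 0.72 at 72 hours, next to 0.44, 0.59 and 0.55 for all genes. A range of 4-fold or more within the group was seen in 6 members in spleen (25.8% of all genes), 9 at 24 hours (46.6%) and 17 at 72 hours (44.6%). The libraries were not regrouped or tested by these values.

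**Figure D4:**
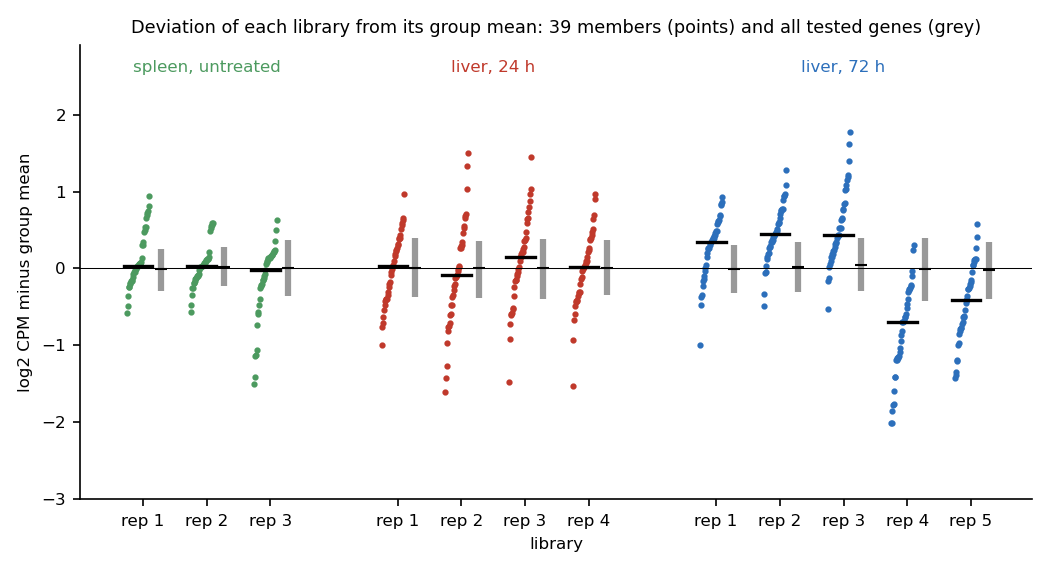
Deviation of log2 CPM from the group mean in each library, with 1 point per tested member, a black bar at their median and a grey bar from the first to the third quartile of all tested genes. The member medians lie near 0 in spleen and at 24 hours, at 0.35 to 0.45 in 72-hour replicates 1 to 3 and at -0.69 and -0.42 in replicates 4 and 5.

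Xaf1 and Bst2, which are among the 17 members with a range of 4-fold or more at 72 hours, had a lowest 72-hour value of 0. Of the members above 0 in every 72-hour library, the widest ranges were those of Ifit3 (17.7-fold from 2.08 to 36.8 CPM), Isg15 (16.6-fold), Dhx58 (12.4-fold), Isg20 (10.9-fold) and Rsad2 (10.6-fold). By role, the summed Ifit family was at 128, 135, 198, 43.8 and 33.7 CPM in the 5 libraries, and the sensors at 67.2, 67.0, 66.9, 27.1 and 26.0 CPM. Membrane proteins did not follow this order, at 200, 230, 164, 203 and 252 CPM. Among the 30 members without a gene on the opposite strand the median deviations were 0.32, 0.46, 0.52, -0.84 and -0.43, and among the 27 members with 30 or more counts on average they were 0.35, 0.44, 0.43, -0.63 and -0.45. The other 87 tested genes of the interferon pathway stood at 0.15, 0.28, 0.20, -0.40 and -0.25. The 5 libraries listed 50.7%, 1.91%, 1.98%, 50.2% and 50.2% of reads as unaligned. They held 1653592, 2813970, 3017403, 1267089 and 1493236 counts on genes. Neutrophil markers summed to 2754, 2562, 2809, 2131 and 2562 CPM in the 5 libraries, monocyte and macrophage markers to 185, 166, 201, 134 and 154 CPM, and hepatocyte markers to 7.59, 18.0, 27.5, 6.95 and 3.24 CPM. The part of depth, alignment or other cells in the pattern was not tested. Without replicates 2 and 3 the median log2 fold change of the members was 0.02 against spleen and 0.07 against 24 hours.

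Per kilobase of exon, so that genes of different length can be set side by side, the highest levels were those of Slfn4 and the IFITM genes in every group. In spleen the mean level was 107 CPM per kb for Slfn4, 97.5 for Ifitm2, 73.9 for Ifitm3, 38.997 for Ifitm1 and 27.7 for Oasl2. In 24-hour neutrophils Ifitm2 (158 CPM per kb) stood above Slfn4 (104) and Ifitm1 (83.4), and in 72-hour neutrophils the order was Ifitm2 (182), Slfn4 (125), Ifitm3 (64.0) and Ifitm1 (42.3). Ifit1 went from the 20th level of 39 in spleen (4.51 CPM per kb) to the 7th at 24 hours (14.2) and the 7th at 72 hours (17.3). The lowest mean levels were those of Socs1 (0.196) and Gbp3 (0.259) in spleen, Gbp3 (0.0541) at 24 hours and Xaf1 (0.599) and Gbp3 (0.5998) at 72 hours.

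Of 131 other genes of the interferon pathway, all were found in the table and 87 were tested. None of the 20 interferon ligands passed the filter, and 19 of them, including Ifnb1 and Ifng, were at 0 in every library; Ifnk had 0 to 5 counts. All 9 receptor and kinase genes were tested and none was called. The median log2 fold change of the 87 genes was -0.07 at 24 hours, 0.21 at 72 hours and 0.33 between the liver times, where that of all genes was -0.23, -0.02 and 0.18. At 24 hours 2 of the 87 genes were called higher and 2 lower, against 5.35% and 4.4% of all genes. Ikbke, which encodes a kinase that activates IRF3, rose at 24 hours by 4.10 on the log2 scale (edgeR, adjusted p = 0.00503), from 2, 6 and 6 counts in spleen to 57, 53, 35 and 40 counts. At 72 hours its counts were 52, 155, 154, 0 and 6, or 28.2, 53.5, 47.7, 0 and 3.89 CPM beside 0.928 to 2.17 CPM in spleen, and the group was called (3.95, adjusted p = 0.00676); without replicates 2 and 3 the call was lost (2.64, adjusted p = 0.109), as it was without spleen replicate 1 (adjusted p = 0.0526). Limma-voom called Ikbke at neither time (adjusted p = 0.0897 and 0.283), and another gene overlaps it in antisense. Socs3, an inhibitor of JAK kinases, rose at 24 hours by 1.02 ± 0.26 (edgeR, adjusted p = 0.0133), and Gbp9, a guanylate-binding protein, and Uba7, the activating enzyme for ISG15, fell by 1.43 (0.0268) and 1.36 (0.0472). Socs3 and Ikbke kept their 24-hour calls with each library left out in turn. Gbp9 lost its call without any 1 of spleen replicates 1, 2 and 3 and 24-hour replicates 1, 2 and 3, and Uba7 without the same libraries or 72-hour replicate 1 or 3 (adjusted p up to 0.0848 and 0.132).

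At 72 hours against spleen, 4 of the 87 other pathway genes were called higher and 1 lower, against 2.63% and 2.71% of all genes. Besides Ikbke these were Ifi207, a member of the HIN-200 family of DNA-binding proteins (3, 3 and 0 counts in spleen against 20, 43, 52, 6 and 6; edgeR, adjusted p = 0.00467), Cxcl10, a chemokine for activated T cells (2, 0 and 0 against 10, 28, 35, 0 and 1; adjusted p = 0.0390), and Cd274, the gene of PD-L1 (log2 fold change 1.81, adjusted p = 0.0254). Both Cxcl10 and Cd274 had their 2 lowest 72-hour values in replicates 4 and 5. Sp110, a nuclear body protein, fell by 0.97 (edgeR, adjusted p = 0.0194). None of these calls was made without 72-hour replicates 2 and 3 together, and Ifi207 alone kept its call with each library left out in turn. Cxcl10 was lost without spleen replicate 2 or 3 or 72-hour replicate 1, 2 or 3, Cd274 without spleen replicate 1 or 2 or 72-hour replicate 2 or 3, and Sp110 without spleen replicate 1 or 2 or 72-hour replicate 1 or 2. Between the liver times 5 of the 87 genes were called higher at 72 hours and 0 lower, against 1.65% and 2.84% of all genes. They were B2m, the light chain of MHC class I, Ptpn6, the phosphatase SHP-1, Gbp9, Aim2, a sensor of cytosolic DNA, and Samhd1, a nucleotide hydrolase, with log2 fold changes of 1.17, 0.93, 1.30, 1.83 and 0.75 (edgeR, adjusted p = 0.0181, 0.0248, 0.0476, 0.0338 and 0.0399). B2m was at 41.0, 43.2, 35.4 and 32.8 CPM at 24 hours and 95.4, 100, 109, 52.8 and 69.4 CPM at 72 hours, without overlap, and at 78.9, 77.6 and 38.3 CPM in spleen. None of these 5 genes was called against spleen at 72 hours, and Gbp9 alone was called at 24 hours. Each of the 5 calls was lost without 72-hour replicates 2 and 3 together. Of the 12 fits that left out a single library, the call was lost in 3 for B2m (24-hour replicates 1 and 4 and 72-hour replicate 3), 6 for Ptpn6, 6 for Aim2, 10 for Gbp9 and 9 for Samhd1, 72-hour replicate 3 being among them for each gene. B2m, Ptpn6 and Aim2 overlap another gene in antisense.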

How the data were processed

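RNA of sorted neutrophils was sequenced from 12 mouse samples (stranded mRNA libraries). The authors aligned the reads to GRCm38 with STAR 2.7.9a and used HTSeq-count for the genes; the deposited values are raw counts, used as they stand. Summary rows, with 96.8% to 97.3% of uniquely aligned reads on no gene, were left out. The RNA integrity limit is 7 in the methods and 8 in the labels. The filter kept genes above 1 CPM in at least 3 samples. Libraries were scaled by TMM factors (CPM values include them), and the quasi-likelihood test of edgeR 4.0.16 (R 4.3.3) was fitted over all 12 libraries. Genes were called at a Benjamini-Hochberg adjusted p, over all tested genes, below 0.05 with a log2 fold change of 0.5 or more in size. Log2 CPM used a prior count of 2. The test was tried on simulated data. Replicates are separate samples, and nothing states that each came from a separate animal. Libraries held 1267089 to 3017403 counts, and those of 1 group differed by a chi-square of 2.34 to 33.97 per degree of freedom, more than counting error alone. Gene positions and opposite-strand genes are from GENCODE M21, promoters from RefSeq.

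The members and gene lists were chosen with earlier results of these data known. Values in every library are given for members called in any comparison or with the smallest unadjusted p of their role in any comparison; other pathway genes are named where called, up to 12. Alternatives were other scalings, no filter, filterByExpr, DESeq2 1.42.0, limma-voom (limma 3.58.1), a fold limit of 1, a replicate block, genes without an opposite-strand gene, and leaving out libraries. Same-numbered libraries did not deviate together (10 pairs, correlations of -0.116 to 0.130).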

Additional observations from a re-analysis of the deposited data

Results flagged for a closer look

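In 78 groups of 4 or 5 libraries (39 members at 2 times), 3 libraries lay far from the others of their group by Dixon's test at the 95% level, where chance gives about 1 group in 20. Cmpk2 was at 2.999 CPM (5 counts) in 24-hour replicate 2 and at 12.7 to 15.1 CPM in the other 24-hour libraries. Gbp3 was at 0.707 CPM (1 count) in 24-hour replicate 3 and at 0 in the others, a difference of a single read. Xaf1 had 0 counts (0 CPM) in 72-hour replicate 4 and 2.596 to 4.49 CPM in the others.

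For 5 pathway genes outside the set, 72-hour neutrophils differed from 24-hour neutrophils in edgeR. These are the calls between the liver times given above. The differences of the 2 times from the same spleen libraries give the same test and not a second result. Each of these calls was lost without 72-hour replicates 2 and 3. The difference was 1.17 on the log2 scale for B2m (adjusted p = 0.0181), 0.93 for Ptpn6 (0.0248), 1.30 for Gbp9 (0.0476), 1.83 for Aim2 (0.0338) and 0.75 for Samhd1 (0.0399). No member of the set differed in this way.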

How the results depend on the processing

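Counts of members called per comparison moved with the processing as follows; the cause was not tested unless the alternative's own construction gives it. Against 1 member higher at 24 hours, 1 higher at 72 hours and 0 between the liver times, no filter on low counts gave 2, 4 and 4 higher, with 1 lower at 24 hours and 1 lower between the liver times. Of all genes it called 7.31%, 4.83% and 4.11% in either direction, where the reported shares were 9.75%, 5.33% and 4.49%. The filter filterByExpr gave 1 lower at 24 hours (16% of all genes called in either direction). DESeq2 gave 1 lower at 24 hours, 2 higher at 72 hours and 1 higher between the liver times (12.1%, 6.67% and 7.23% of all genes), and limma-voom gave 0 at 24 hours and 0 at 72 hours (9.61% and 6.08%). Genes with no gene on the opposite strand gave 1 between the liver times (Cmpk2; 2.27% of all genes), and without 72-hour libraries 2 and 3 the 72-hour count was 0 (2.38%). The replicate block, whose numbers did not pair the samples, gave 2, 5 and 2 higher (10.4%, 7% and 4.8% of all genes).

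For other pathway genes (2 higher and 2 lower at 24 hours, 4 and 1 at 72 hours, 5 and 0 between the liver times), upper-quartile scaling gave 1 lower at 24 hours and 3 higher between the liver times. No filter gave 4 higher at 24 hours and 1 lower between the liver times, limma-voom 1 higher at 24 hours and 2 at 72 hours, and the replicate block 1 lower at 24 hours. A fold limit of 1 gave 0 lower at 72 hours and 3 higher between the liver times. Genes with no gene on the opposite strand gave 0 between the liver times and 2 higher and 0 lower at 72 hours, and leaving out 72-hour libraries 2 and 3 gave 0 in each of these.

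Leaving out 1 library at a time, the members called ranged from 0 to 1 higher and 0 to 1 lower at 24 hours, 0 to 2 higher at 72 hours, and 0 to 3 higher between the liver times. The 24-hour count was 0 without spleen replicate 1 or 2 or 24-hour replicate 3 or 4, and Nmi was called lower without 24-hour replicate 3. The 72-hour count was 0 without spleen replicate 1 or 2 and 2 without spleen replicate 3 or 72-hour replicate 3 or 4. Between the liver times it was 3 without 72-hour replicate 4 (Ifit3, Rsad2 and Cmpk2) and 1 (Cmpk2) without 72-hour replicate 5 or spleen replicate 3. Pathway genes ranged from 0 to 2 lower at 24 hours, 2 to 5 higher and 0 to 2 lower at 72 hours, and 0 to 5 higher and 0 to 1 lower between the liver times.

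Signs turned only for log2 fold changes without a call. With upper-quartile scaling Ifih1 was at 0.046 and Gbp7 at 0.00648 at 24 hours, with limma-voom Oasl1 at -0.060 and Rsad2 at -0.15 at 24 hours, and with the replicate block Ifih1 at 0.12 at 24 hours and Rtp4 at 0.11 at 72 hours. Without 72-hour libraries 2 and 3, the difference between the liver times was -0.10 for Dhx58, -0.17 for Stat2, -0.043 for Socs1, -0.19 for Ifit1, -0.15 for Oasl1, -0.067 for Isg15, -0.30 for Parp14, -0.30 for Cd274 and -0.25 for Cxcl10. At 72 hours it was -0.10 for Oasl1, -0.11 for Cmpk2, -0.14 for Ifitm1 and -0.14 for Parp14. Leaving out 1 library gave ranges at 24 hours of -0.33 to 0.16 for Ifih1, -0.0021 to 0.71 for Stat2, -0.23 to 0.28 for Usp18, -0.21 to 0.21 for Oasl1, -0.075 to 1.27 for Isg15, -0.28 to 0.28 for Rsad2 and -0.16 to 0.035 for Gbp7. At 72 hours the ranges were -0.31 to 0.50 for Ifitm1, -0.14 to 0.087 for Rtp4, -0.24 to 0.11 for Gbp9 and -0.38 to 0.021 for Uba7, and between the liver times -0.068 to 0.46 for Usp18, -0.11 to 1.16 for Socs1 and -0.55 to 0.15 for Ikbke. The medians of the members moved by less than the spread between replicates under each alternative, the pooled SD of their median log2 CPM being 0.40. That SD is larger than each of the reported medians, so that a move below it does not tell a median from 0. Leaving out 1 library gave medians of -0.07 to 0.03 at 24 hours, 0.19 to 0.46 at 72 hours and 0.25 to 0.52 between the liver times. With the genes that overlap an opposite-strand gene left out, the median of all genes moved from -0.23 to -0.44 at 24 hours and from 0.18 to 0.37 between the liver times. At this depth 5 of the 39 tested members averaged under 10 counts per library.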
